A study of Sesamum indicum with 6 samples.

Results

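AINTEGUMENTA and the other AP2-like factors are transcription factors of plants that share the DNA-binding domain named after APETALA 2. The 16 genes described here were those whose product name in the deposited annotation read AP2-like ethylene-responsive transcription factor, AINTEGUMENTA or floral homeotic protein APETALA 2, out of 20661 annotated genes and 25762 counted genes. This rule by name used no levels of expression, except that the annotated table lists only genes that the authors could test. The rule was, however, set with earlier results of these data known. Of the 16, 14 passed the filter on low counts and were tested.

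RNA was measured by bulk segregant sequencing in leaf tissue that was still young, taken 17 days into the growth of sesame (Sesamum indicum) from recombinant inbred lines, which are near-homozygous mosaics of their parents. On linkage group 8, SiCD_B plants were homozygous for the SiCD-B allele with the mutant kan1, and SiCD_A plants for the SiCD-A allele with wild-type KAN1. Both groups came from the same kind of lines and were grown alike, in days of 12 h at 28 °C and nights at 22 °C. Each group held 19 plants and gave 3 pools of RNA from 9 plants each, so a group's 19 plants had to fill 27 places and some plants were in more than 1 pool. Each p-value rests on the spread between such pools, and differences between the plant sets at other loci cannot be told apart from the allele. Pools that share plants are not independent, so their spread can be too small, and with it the p-values, SE and intervals.

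In Arabidopsis, AINTEGUMENTA (ANT) and the AINTEGUMENTA-LIKE (AIL) genes keep cells of young organs dividing, so that organs grow larger when ANT is more active. APETALA 2 and the TOE factors specify floral organs and hold back flowering, and their messengers are targets of the small RNA miR172. Several WRINKLED-type AP2 factors switch on the synthesis of fatty acids for seed oil and cuticle. By product name the 16 genes were sorted here into an AINTEGUMENTA class of 6 genes, an APETALA 2 class of 5 and a WRINKLED-type class of 5.

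The pools held 74331695 to 82165322 counts in SiCD_B and 56123250 to 74705569 in SiCD_A. Levels are CPM, counts per 1000000 reads after TMM scaling, which are not divided by gene length, so they are compared between groups and not between genes. KAN1 itself (LOC105167765) had 53.8, 52.9 and 56.5 CPM in SiCD_B and 22.2, 20.7 and 25.2 CPM in SiCD_A. The mutation in kan1 was not analysed here, and this level checks no label. Leaf markers were abundant in all pools: the 20 chlorophyll-binding and Rubisco small subunit genes summed to 21944 to 25833 CPM in SiCD_B and 21764 to 32804 CPM in SiCD_A, where pool 3, also the shallowest, was below every SiCD_B pool and the other pools were above them all.

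Most AP2-like genes were higher in the pools with the mutant allele. Of the 14 tested, 9 rose, 1 fell and 4 did not pass the test, which was edgeR's quasi-likelihood test with an adjusted p below 0.05. Across all 21009 tested genes, 30.6% were called, 16.5% as higher and 14.1% as lower. Every SiCD_B pool stood above every SiCD_A pool for 10 of the 14 and below for 1, as for 25.8% and 22.6% of all genes. The median log2 fold change of the 14 was 0.44, beside 0.01 for all genes tested. Changes of at least 2-fold were seen in 3 AP2-like genes, all higher, against 1.26% of all genes. Without SiCD_B pool 2 the genes called over the whole table numbered 2132 higher and 1787 lower in place of 3462 and 2971, while the AP2-like genes still counted 9 and 1. In whole leaves, more cells of a type and more RNA per cell cannot be told apart.

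**Figure D1:**
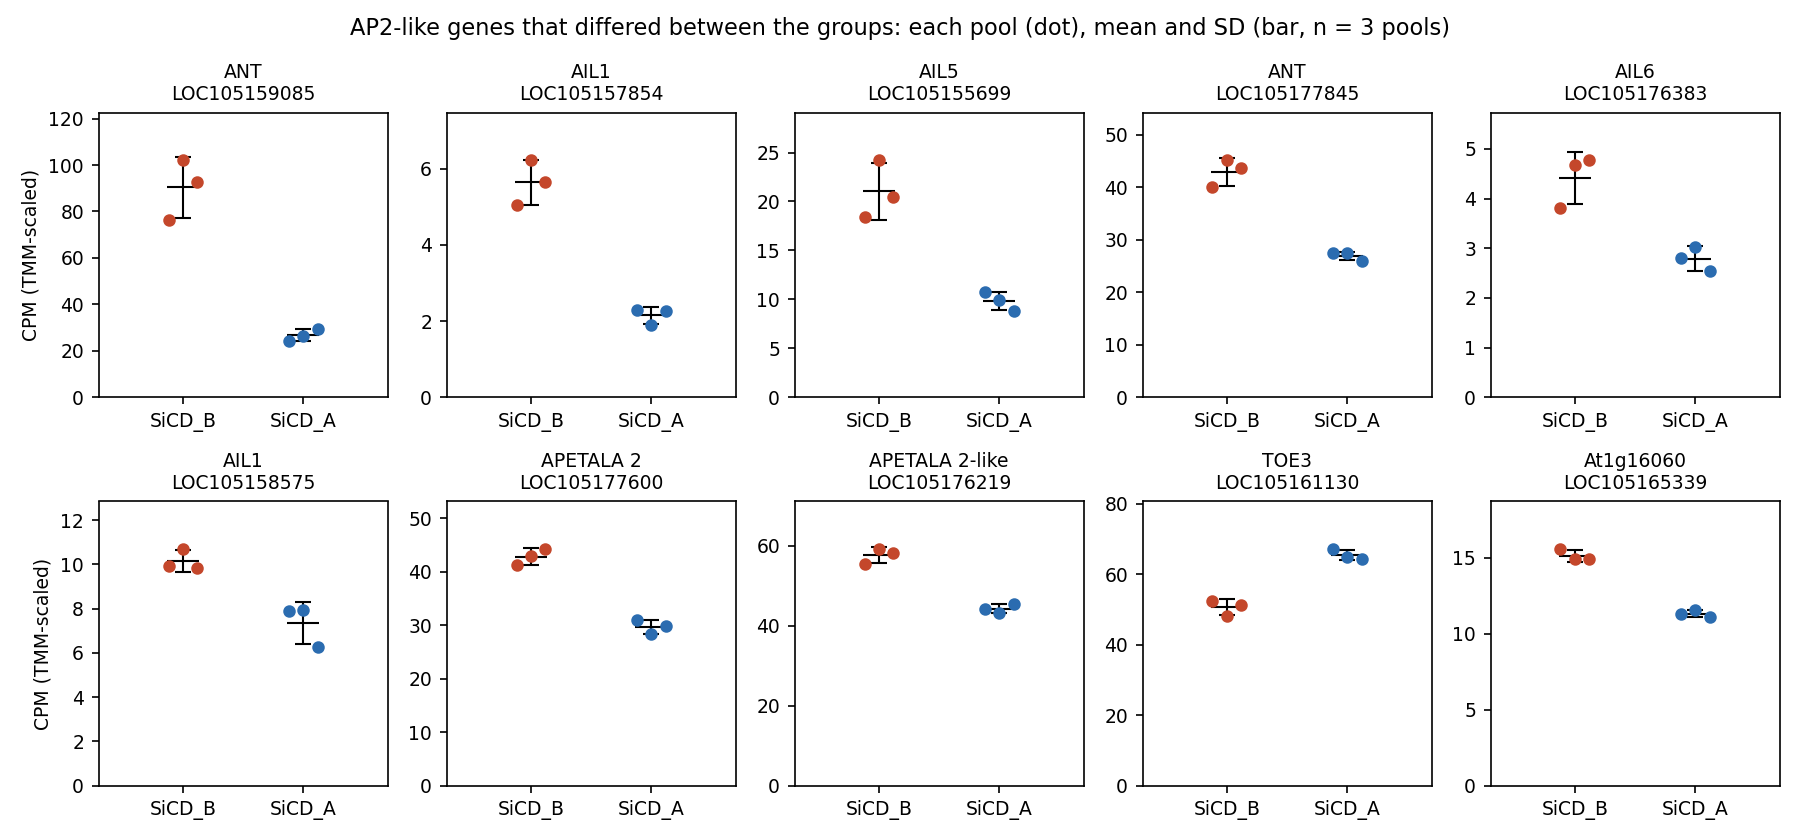
Level in CPM of the 10 AP2-like genes that differed between the groups, with SiCD_B at the left and SiCD_A at the right of each panel. Dots are pools, and bars are the mean and SD of 3 pools. In no panel do the groups overlap, and TOE3 is the only gene with SiCD_B below SiCD_A.

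ANT (LOC105159085) changed most of the AP2-like genes. It lies on linkage group 3, where the deposited annotation places a coding segment, part of an exon, at 21400314 to 21400578 on the minus strand. ANT had 76.3, 102 and 92.8 CPM in the SiCD_B pools and 24.2, 26.5 and 29.4 CPM in the SiCD_A pools, from 5910 to 8498 counts in SiCD_B and 1658 to 1938 counts in SiCD_A. The lowest SiCD_B pool thus stood 2.59 times above the highest SiCD_A pool. Its log2 fold change was 1.76 (SE 0.12, edgeR adjusted p = 0.000227), a 3.38-fold increase, and ranked 75 from the top among the log2 fold changes of the 21009 tested genes. ANT took 20.7% to 24.8% of the summed CPM of the 16 genes in SiCD_B and 8.66% to 10.6% in SiCD_A.

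A second gene with the product name ANT (LOC105177845, linkage group 15, coding segment 4360437 to 4360722) rose less. Its levels were 40.0, 45.1 and 43.7 CPM in SiCD_B and 27.4, 27.4 and 26.0 CPM in SiCD_A, with narrow spread in both groups. The log2 fold change was 0.67 (SE 0.06, edgeR adjusted p = 0.000152). Although smaller, this change had the smaller p of the ANT pair.

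The AIL genes all rose. AIL1 (LOC105157854, linkage group 3, coding segment 9233715 to 9234022) had 5.04, 6.22 and 5.66 CPM in SiCD_B and 2.29, 1.89 and 2.27 CPM in SiCD_A, a log2 fold change of 1.39 (SE 0.14, edgeR adjusted p = 0.000271). AIL5 (LOC105155699, linkage group 2, coding segment 10206190 to 10206283), a gene whose Arabidopsis namesake is expressed in embryos and young organs, had 18.4, 24.2 and 20.5 CPM in SiCD_B and 10.7, 9.89 and 8.84 CPM in SiCD_A. Its log2 fold change was 1.10 (SE 0.11, edgeR adjusted p = 0.000354). For both genes every SiCD_B pool was above every SiCD_A pool, by 2.19 and 1.72 times between the nearest pools.

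The other AIL genes changed by less. AIL6 (LOC105176383, linkage group 13), which in Arabidopsis works together with ANT in flower growth, had 3.81, 4.67 and 4.77 CPM in SiCD_B and 2.80, 3.03 and 2.54 CPM in SiCD_A, a log2 fold change of 0.66 (SE 0.14, edgeR adjusted p = 0.00732). The second AIL1 gene (LOC105158575, linkage group 3, coding segment 16453395 to 16453641) had 9.92, 10.7 and 9.83 CPM in SiCD_B and 7.87, 7.94 and 6.27 CPM in SiCD_A. With a log2 fold change of 0.46 (SE 0.10) and an edgeR adjusted p of 0.0111, it was the weakest call of the class. When each pool was left out in turn, its adjusted p ranged from 0.0140 to 0.0492.

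All 6 genes of the AINTEGUMENTA class thus rose, with log2 fold changes from 0.46 to 1.76 and a median of 0.89. Their summed level was 153, 193 and 177 CPM in SiCD_B, against 75.3, 76.7 and 75.4 CPM in SiCD_A. They held 41.7% to 46.9% of the summed CPM of the 16 AP2-like genes in SiCD_B and 26.9% to 28.4% in SiCD_A. Within SiCD_B, pool 1 was the lowest for 5 of the 6 genes and pool 2 the highest for 5. The share of all genes with this order of pools was not computed.

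**Figure D2:**
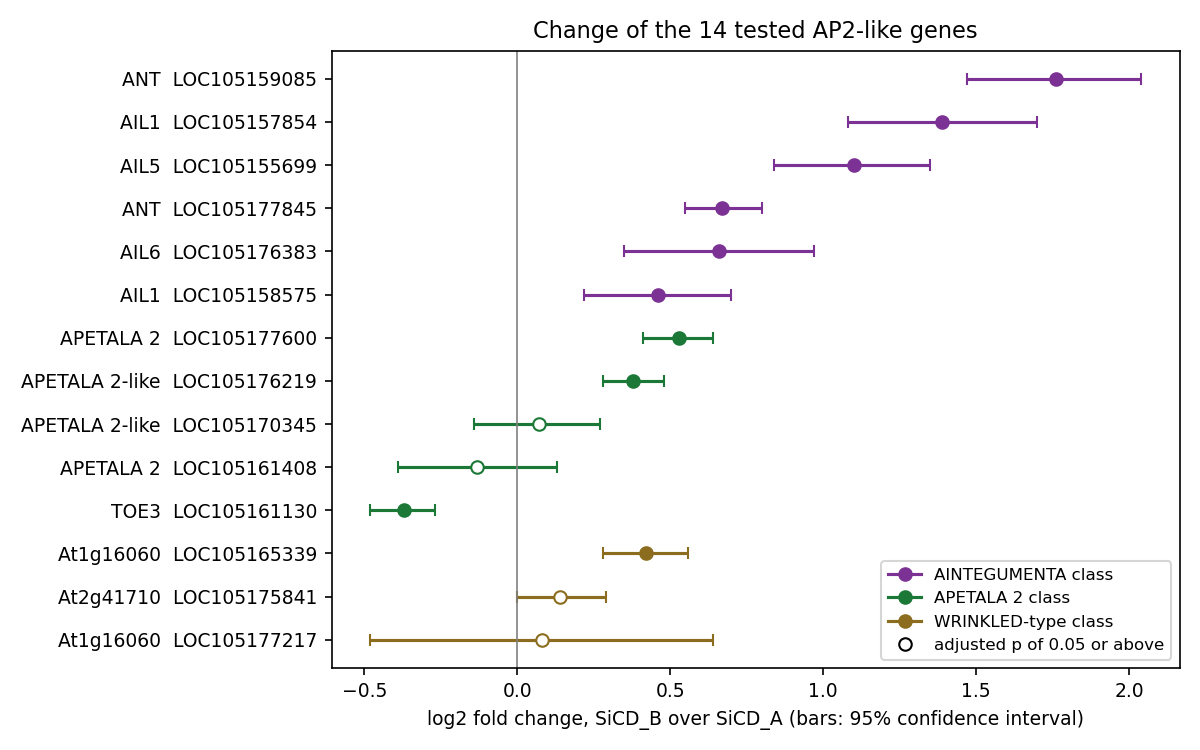
Log2 fold change, SiCD_B over SiCD_A, of the 14 tested AP2-like genes by class, with 95% confidence intervals of edgeR's fit. Filled symbols have an adjusted p below 0.05. All 6 AINTEGUMENTA-class genes lie above 0, from 0.46 to 1.76, while the APETALA 2 class spans -0.37 to 0.53.

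The APETALA 2 class was divided. The gene named APETALA 2 on linkage group 15 (LOC105177600, coding segment 2746366 to 2746895) had 41.2, 43.0 and 44.3 CPM in SiCD_B and 30.9, 28.4 and 29.8 CPM in SiCD_A. Its log2 fold change was 0.53 (SE 0.05, edgeR adjusted p = 0.000270). An APETALA 2-like gene on linkage group 13 (LOC105176219, coding segment 3030645 to 3031147) had 55.4, 59.2 and 58.2 CPM in SiCD_B and 44.2, 43.1 and 45.5 CPM in SiCD_A, a log2 fold change of 0.38 (SE 0.04, edgeR adjusted p = 0.000573). Both rose by less than 1.5-fold, with no overlap between groups.

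TOE3 (LOC105161130, linkage group 4, coding segment 15446390 to 15446931), whose Arabidopsis namesake is a repressor of flowering, was the only one of the 14 tested genes that fell. It had 52.5, 48.2 and 51.3 CPM in SiCD_B and 67.2, 65.0 and 64.4 CPM in SiCD_A. The log2 fold change was -0.37 (SE 0.05, edgeR adjusted p = 0.000707), and every SiCD_B pool was below every SiCD_A pool. TOE3 took 11.7% to 14.3% of the summed CPM of the family in SiCD_B and 23.2% to 24.0% in SiCD_A. The family sum itself was higher in SiCD_B, at 368 to 410 CPM against 270 to 280 CPM, while TOE3 stood at 0.77 times its SiCD_A level.

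The remaining APETALA 2 genes did not pass the test, and their groups overlapped. LOC105161408 on linkage group 5 had 5.91, 4.74 and 5.01 CPM in SiCD_B and 6.14, 5.37 and 5.63 CPM in SiCD_A (log2 fold change -0.13, 95% confidence interval -0.39 to 0.13, edgeR adjusted p = 0.422). LOC105170345 on linkage group 9 had 26.3, 30.4 and 29.4 CPM in SiCD_B and 28.3, 23.9 and 30.1 CPM in SiCD_A (log2 fold change 0.07, interval -0.14 to 0.27, edgeR adjusted p = 0.609).

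In the WRINKLED-type class, 1 of 3 tested genes rose, 33.3% beside 16.5% of all genes. The gene named after Arabidopsis At1g16060 on linkage group 1 (LOC105165339, coding segment 12752668 to 12752825) had 15.6, 14.9 and 14.9 CPM in SiCD_B and 11.3, 11.6 and 11.1 CPM in SiCD_A. Its log2 fold change was 0.42 (SE 0.06, edgeR adjusted p = 0.00159), with no overlap between groups. LOC105175841, named after At2g41710, had 16.7, 16.0 and 15.6 CPM in SiCD_B and 15.3, 14.7 and 13.8 CPM in SiCD_A. These groups just failed to overlap, yet the log2 fold change of 0.14 (SE 0.06) did not pass (edgeR adjusted p = 0.129). With library size as the only scaling it did (0.19, adjusted p = 0.0461).

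The other genes named after At1g16060 had low levels. LOC105177217 had 0.942, 1.22 and 1.57 CPM in SiCD_B and 0.957, 1.41 and 1.15 CPM in SiCD_A, with a log2 fold change of 0.08 (interval -0.48 to 0.64, edgeR adjusted p = 0.824), and it overlaps LOC105177216, from which its reads cannot be told apart without strand. LOC105156293 had 23, 4 and 15 counts in SiCD_B and 4, 7 and 4 counts in SiCD_A. LOC105155867 had 3, 8 and 8 counts in SiCD_B and 7, 12 and 8 counts in SiCD_A. Both were below the filter and were not tested.

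Genes with the same product name differed in how far they moved in these pools. Since both genes of such a pair were read in the same pool, the ratio of their counts does not depend on scaling. ANT LOC105159085 had 1.91, 2.25 and 2.12 reads for each read of ANT LOC105177845 in SiCD_B, and 0.886, 0.969 and 1.13 in SiCD_A. The AIL1 ratio, LOC105157854 over LOC105158575, was 0.555 ± 0.0411 in SiCD_B and 0.297 ± 0.0625 in SiCD_A (SD, n = 3 pools each). That of the genes named APETALA 2, LOC105177600 over LOC105161408, was 8.29 ± 1.15 in SiCD_B and 5.20 ± 0.142 in SiCD_A, and that of the APETALA 2-like genes, LOC105176219 over LOC105170345, was 2.01 ± 0.0828 in SiCD_B and 1.62 ± 0.155 in SiCD_A. In all 4 pairs the groups did not overlap. Among single genes tested, all SiCD_B pools were higher for 25.8% and lower for 22.6%, and the share for ratios of other gene pairs was not computed. Each of the 4 pairs gave a two-sided exact permutation p of 0.1, the smallest that 3 pools against 3 allow. This p stayed 0.1 after Benjamini-Hochberg adjustment over the 4 pairs. The ratios were not among the planned results, and each has the gene with the higher log2 fold change on top. They therefore largely restate the fold changes given above and are no separate support for them. Genes sharing the name At1g16060 were not paired. How the counting treated reads that match both genes of a pair is not given in the sources used here.

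**Figure D3:**
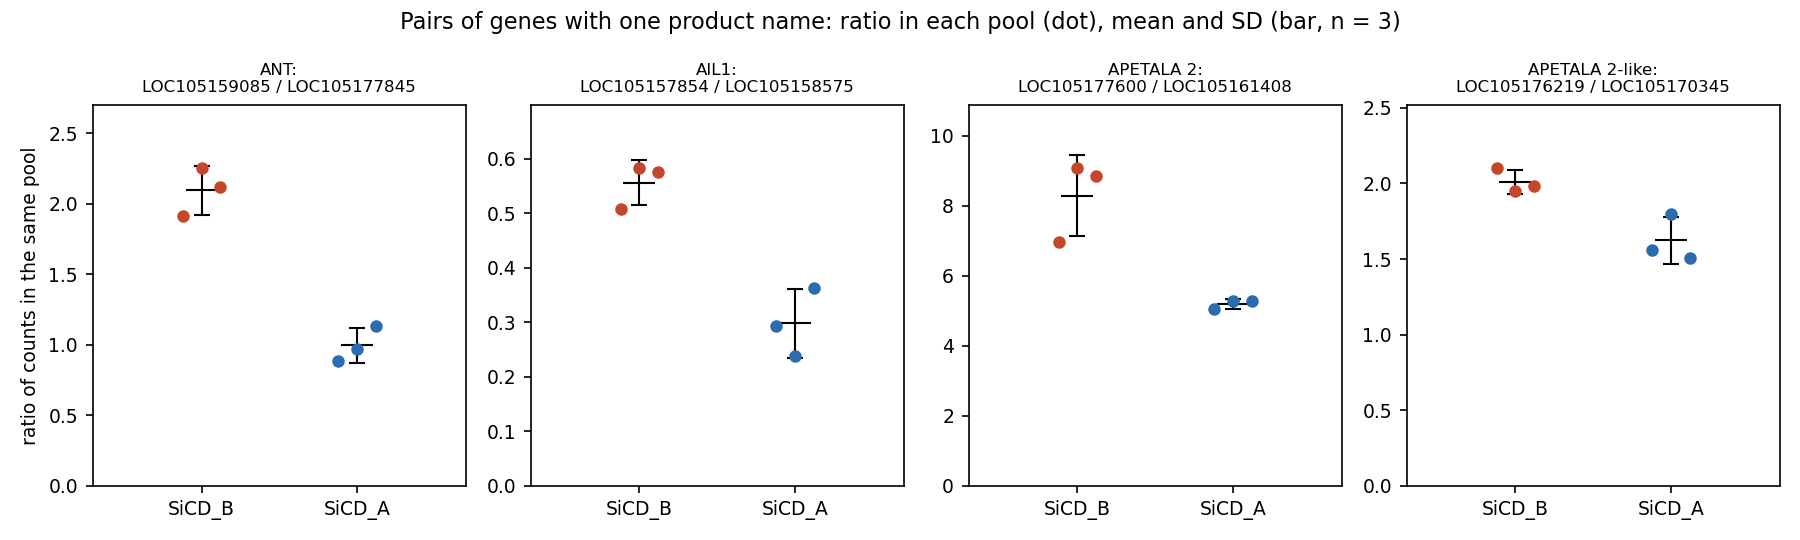
Ratio of the counts of 2 genes with the same product name in each pool, SiCD_B at the left and SiCD_A at the right. Dots are pools, and bars are the mean and SD of 3 pools. The ANT ratio was 1.91 to 2.25 in SiCD_B and 0.886 to 1.13 in SiCD_A.

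The 16 genes lay on 9 linkage groups, and 0 of them on linkage group 8 with the allele. The 3 AINTEGUMENTA-class genes on linkage group 3 lay apart from each other, between the coding segments at 9233715 and 21400314, with log2 fold changes of 1.39, 0.46 and 1.76 in that order along the linkage group.

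Markers of dividing cells moved with the AINTEGUMENTA class. Of 32 tested histone H3.2, histone H4 and mitotic cyclin genes, which serve DNA replication and division, 26 rose and 0 fell. These are 81.2% and 0%, beside 16.5% and 14.1% of all genes, and their median log2 fold change was 0.70. Without each pool in turn, 23 to 26 rose. The 33 genes summed to 2071, 2277 and 2115 CPM in SiCD_B and 1397, 1428 and 1174 CPM in SiCD_A, and 0 of them were at 0 in either group. Pool 2 was highest and pool 1 lowest in SiCD_B for both these markers and ANT, an order whose share over all genes was not computed. In SiCD_A the orders differed, since pool 3 was the lowest for the markers and the highest for ANT.

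Set against these markers, the genes of the class differed. Every gene was divided by the same marker sum of its pool, so this scale largely restates the fold changes given above. Per 1000 CPM of dividing cell markers, ANT LOC105159085 had 36.8, 44.7 and 43.9 CPM in SiCD_B and 17.3, 18.6 and 25.1 CPM in SiCD_A, a ratio of means of 2.05. AIL1 LOC105157854 and AIL5 were also higher on this scale in every SiCD_B pool, with ratios of means of 1.60 and 1.32. ANT LOC105177845 had 19.3 to 20.7 CPM per 1000 in SiCD_B and 19.2 to 22.2 in SiCD_A, and AIL6 had 1.84 to 2.26 in SiCD_B and 2.00 to 2.16 in SiCD_A, so that the groups overlapped for both. AIL1 LOC105158575 was lower in every SiCD_B pool, at 4.65 to 4.79 CPM per 1000, against 5.34 to 5.63 in SiCD_A. Outside the class, the ratios of means were 0.48 to 0.89 for the 5 APETALA 2 genes and 0.65 to 0.82 for the 3 tested WRINKLED-type genes. This scale was chosen after the values had been seen and carries no test, and the part of dividing cells in the change of any gene was not tested.

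**Figure D4:**
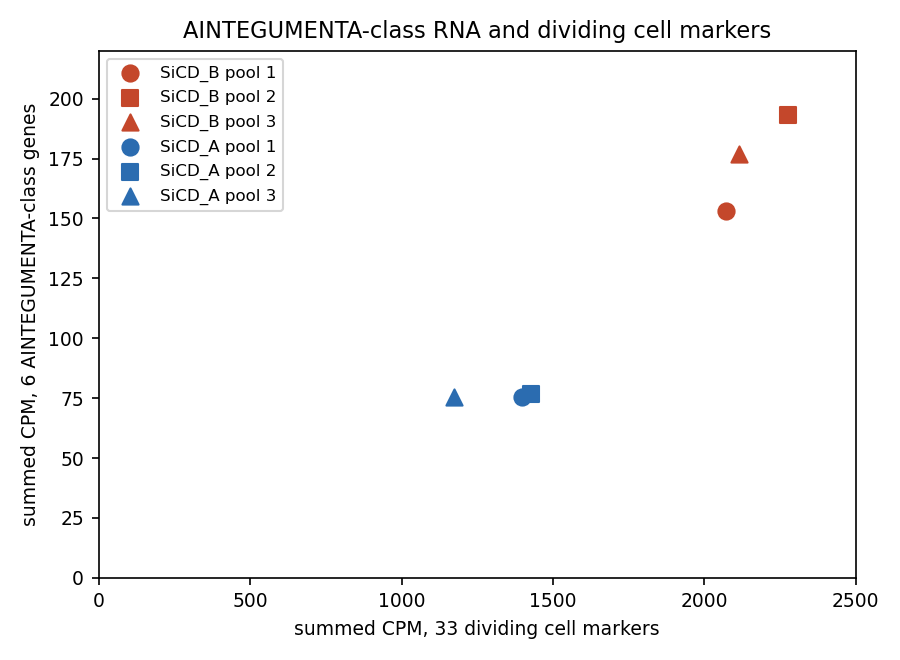
Summed CPM of the 6 AINTEGUMENTA-class genes against summed CPM of 33 dividing cell markers, 1 symbol per pool. The SiCD_B pools lie at 153 to 193 CPM of the class and 2071 to 2277 CPM of the markers, and the SiCD_A pools at 75.3 to 76.7 CPM and 1174 to 1428 CPM.

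Markers of other tissues were summed in the same way. Of 11 tested genes matched by product name as shoot meristem markers, 3 rose and 0 fell (1 to 3 rose without each pool). These are 27.3% and 0%, beside 16.5% and 14.1% of all genes. Only 6 of the 11 had a log2 fold change above 0, with a median of 0.15 and a range of -1.08 to 2.47. The 14 genes matched summed to 257 to 286 CPM in SiCD_B and 238 to 279 CPM in SiCD_A. Most of this came from a pair of LET12-type homeobox genes that did not pass the test, and 9 of the 14 were below 1 CPM in every pool. The sum is therefore no measure of meristem cells. The 3 that rose were at 1.69 CPM or less in every pool. Knotted-1-like 1 (LOC105172431), a homeobox gene of the meristem, had 1.45, 1.54 and 0.747 CPM in SiCD_B and 0.211, 0.137 and 0.337 CPM in SiCD_A, a log2 fold change of 2.47 (SE 0.40, edgeR adjusted p = 0.00249). Another knotted-1-like 1 gene (LOC105165868) rose by 1.01 (edgeR adjusted p = 0.0322, up to 0.123 without a pool) and a TDIF gene (LOC105163512), of a signal peptide of vascular tissue, by 0.71 (0.0190, up to 0.0674). These marker genes were picked out after their values were seen, and the part of meristem cells in the change of the AINTEGUMENTA class was not tested. Flower markers summed to 5.13 to 5.99 CPM in SiCD_B and 6.77 to 6.97 CPM in SiCD_A. Of 4 tested, 0 rose and 1 fell, 0% and 25% beside 16.5% and 14.1% of all genes. The gene that fell was the floricaula gene LOC105158515, with an adjusted p of up to 0.0946 when a pool was left out. Genes matched as root markers were mostly CASP-like by product name and were not checked for expression in roots alone. Their sums, 425 to 463 CPM in SiCD_B and 349 to 394 CPM in SiCD_A, are therefore no measure of root tissue. Of 36 tested, 7 rose and 1 fell. The 19.4% that rose were near the 16.5% of all genes, and the 2.78% that fell were below the 14.1%. Without a pool, 0 to 2 fell. Seed markers were at 2.11 to 3.65 CPM in SiCD_B and 1.72 to 3.21 CPM in SiCD_A. Of 3 tested, 1 rose and 0 fell, 33.3% and 0% beside 16.5% and 14.1% of all genes. The gene that rose was oleosin 1 (LOC105161453), with an adjusted p of up to 0.0851 when a pool was left out. Leaf markers rose for 1 and fell for 3 of 20 tested genes, 5% and 15% beside 16.5% and 14.1% of all genes. Without SiCD_A pool 3, 16 leaf markers fell, and 0 or 1 fell without any other pool.

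Of 23 tested organ growth genes, which in Arabidopsis act beside AINTEGUMENTA or set organ size in parallel, 10 rose and 2 fell. The list was not split into genes that promote growth and genes that restrict it. These are 43.5% and 8.70% of the list, beside 16.5% and 14.1% of all genes, and the median log2 fold change was 0.14. Both genes named auxin response factor 5, in Arabidopsis an activator of ANT and AIL6, rose. LOC105159332 had 51.5, 69.9 and 67.8 CPM in SiCD_B and 26.5, 28.3 and 25.5 CPM in SiCD_A (log2 fold change 1.24, SE 0.12, edgeR adjusted p = 0.000606). LOC105166017 had 37.5, 47.3 and 46.1 CPM in SiCD_B and 20.7, 22.6 and 21.5 CPM in SiCD_A (1.02, SE 0.09, edgeR adjusted p = 0.000220).

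D3-type cyclins drive the division of young organ cells, and ANT prolongs their expression in Arabidopsis. Of the 6 on the list, 3 rose and 3 did not pass, where 16.5% of all genes rose. Cyclin-D3-3 LOC105159150 had 179, 198 and 193 CPM in SiCD_B and 135, 133 and 125 CPM in SiCD_A, a log2 fold change of 0.54 (SE 0.05, edgeR adjusted p = 0.000266). The others that rose were LOC105169513, by 0.28, and LOC105177586, by 0.20 (edgeR adjusted p = 0.0163, up to 0.0677 without a pool), while the 3 that did not pass had -0.07 to 0.15. Of 4 cytochrome P450 78A genes, a family with members that promote organ growth in Arabidopsis, 2 rose, 1 fell and 1 did not pass. Cytochrome P450 78A3-like (LOC105174473) was close to silent in SiCD_A, with 7, 3 and 6 counts, and had 1.36, 1.64 and 0.970 CPM in SiCD_B against 0.0985, 0.0411 and 0.107 CPM in SiCD_A (log2 fold change 4.01, SE 0.39, edgeR adjusted p = 0.000271). The other that rose, a 78A7-like gene (LOC105171266) annotated as a low-quality protein, had 52, 42 and 40 counts in SiCD_B and 0, 1 and 5 counts in SiCD_A. Cytochrome P450 78A5 (LOC105168878) fell, with 10, 20 and 7 counts in SiCD_B and 43, 37 and 37 counts in SiCD_A (log2 fold change -1.91, SE 0.39, edgeR adjusted p = 0.00702). The other organ growth gene that fell was DA1-related 2 (LOC105160936), at -0.35 (edgeR adjusted p = 0.00461). Of 4 BIG BROTHER genes, 2 rose and 2 did not pass. LOC105169026 rose by 0.62 (edgeR adjusted p = 0.00333) and LOC105156102 by 0.13 (edgeR adjusted p = 0.0427, up to 0.141 without a pool). These were named after their values were seen, as were the cyclins other than LOC105159150. ARGOS, the gene named AUXIN-REGULATED GENE INVOLVED IN ORGAN SIZE (LOC105159019), was looked at after its values were seen, because it acts upstream of ANT in Arabidopsis. Its levels were 23.5, 26.5 and 19.5 CPM in SiCD_B and 18.3, 17.4 and 14.8 CPM in SiCD_A (log2 fold change 0.46, SE 0.12, edgeR adjusted p = 0.0263), and the call was lost when single pools were left out, with an adjusted p of up to 0.0741.

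**Figure D5:**
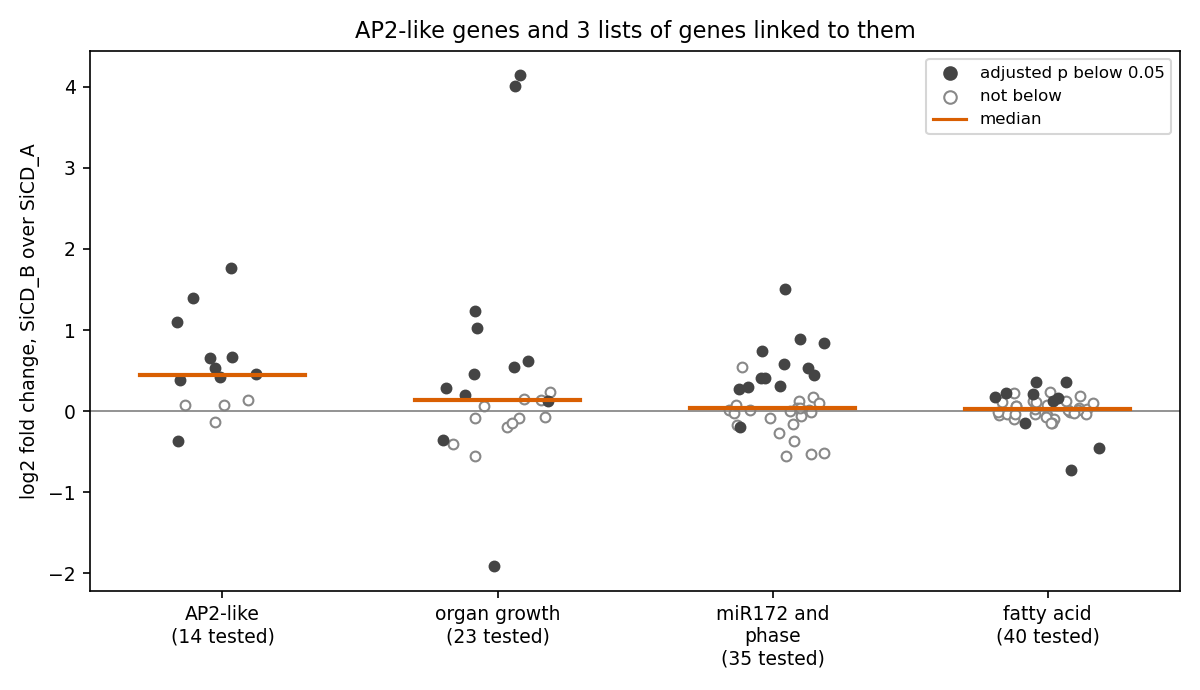
Log2 fold change, SiCD_B over SiCD_A, of each tested AP2-like gene and of each tested gene on 3 lists linked to them. Filled dots have an adjusted p below 0.05 and lines are medians, at 0.44 for the AP2-like genes, 0.14 for organ growth, 0.04 for miR172 and phase and 0.03 for fatty acid genes.

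Genes tied to APETALA 2 and TOE factors in flowering and phase change rose for 12 and fell for 1 of 35 tested, 34.3% and 2.86% beside 16.5% and 14.1% of all genes, with a median log2 fold change of 0.04. Most of the list, 21 genes, were squamosa promoter-binding factors, of which 9 rose, 1 fell and 11 did not pass. Several of this family promote the adult phase in Arabidopsis, but the namesake of protein 7 is known there for copper supply and that of protein 8 for fertility. Squamosa promoter-binding-like 7 (LOC105170831) had 14.1, 18.7 and 17.5 CPM in SiCD_B and 5.38, 6.47 and 5.89 CPM in SiCD_A, a log2 fold change of 1.50 (SE 0.12, edgeR adjusted p = 0.000130). LOC105173751 (like protein 12) rose by 0.89, LOC105170820 (like protein 8) by 0.74 and LOC105165399 (protein 2-like) by 0.41 on the log2 scale. The gene that fell, LOC105178165 (like protein 14), had -0.19 (edgeR adjusted p = 0.0237). Outside this family, topless-related protein 4 (LOC105158374), a corepressor, rose by 0.53 and APETALA 1 A-like (LOC105180307) by 0.84 (edgeR adjusted p = 0.0140, up to 0.0539 without a pool), both named after their values were seen. No gene fell without SiCD_B pool 2, and 2 fell without SiCD_B pool 1 or 3. Of the 3 genes named RAP2-7, whose Arabidopsis namesake is itself a TOE factor, LOC105180208 rose (0.58, SE 0.10, edgeR adjusted p = 0.00354). LOC105170679 had -0.27 (edgeR adjusted p = 0.0945) and LOC105180195 had -0.55 (edgeR adjusted p = 0.0810), and neither passed the test. The choice by product name left these 3 genes out of the 16. These RAP2-7 genes were singled out after their values were seen.

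Fatty acid genes, some of them targets of WRINKLED-type factors in Arabidopsis, rose for 7 and fell for 3 of 40 tested. The list, matched by product words, also holds mitochondrial acyl carrier proteins and the genes named WRI1. Its median log2 fold change was 0.03. The share that rose, 17.5%, was near the 16.5% of all genes, and the share that fell, 7.5%, was below their 14.1%. Enoyl-ACP reductase LOC105163601, of the last step of each elongation cycle, rose by 0.36 (SE 0.04, edgeR adjusted p = 0.000471), oleoyl-ACP thioesterase LOC105170561, which releases oleate, by 0.36 and acyl carrier protein LOC105156924 by 0.21, while acyl-ACP thioesterase ATL2-like LOC105160842 fell to 6.49 to 6.91 CPM in SiCD_B, against 10.5 to 11.9 CPM in SiCD_A. Without SiCD_B pool 2 the numbers were 3 higher and 1 lower, without SiCD_A pool 1 or 2 they were 4 and 1, without SiCD_B pool 1 they were 7 and 1, and with library size alone 12 and 1. The 3 genes named WRI1 (LOC105162419, LOC105167738 and LOC105172214), at 0.113 to 1.62 CPM, had log2 fold changes of 0.13, -0.07 and -0.15 and did not pass. They were picked out after their values were seen.

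In the authors' deposited table, 10 of the 16 AP2-like genes had an adjusted p below 0.05, against 31.7% of all genes in it. Its log2 fold change of ANT LOC105159085 was 1.75.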

How the data were processed

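The authors deposited whole read counts per gene for 6 pools, sequenced as pairs of 100 bases. Per the submitters' processing notes DESeq2, HTSeq, SAMtools, STAR, Trim Galore and FastQC 0.11.4 were used, and the genome build is not given in the sources used here. Per the labels' protocols the library kit was TruSeq version 2, which does not mark strand. The deposited normalized signal was checked to equal the counts divided by 1 factor per pool. The deposited log2 fold changes and p-values of the authors were read only where named. Coding segments come from the deposited annotation. All 20661 lay inside the spans of the same genes in RefSeq S_indicum_v1.0, which gave linkage groups and overlaps.

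Counts were tested with edgeR 4.0.16 (R 4.3.3), quasi-likelihood with robust fitting, TMM and filterByExpr, as SiCD_B minus SiCD_A, with Benjamini-Hochberg adjustment over 21009 genes. SE is the log2 fold change divided by the square root of F. Intervals cover the spread between pools. Alternatives were DESeq2 1.42.0 (its size factors and its Wald test), scaling by library size alone, dropping the filter, keeping genes with 1 CPM or more in 3 pools, limma-voom (limma 3.58.1), pool number as a block and leaving out each pool. Chi-square tests between pools of the same group gave 5.24 to 29.7 per degree of freedom, so none was treated as a repeat of another. These values do not show that the pools are independent, since pools of a group shared plants.

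The members and lists were chosen with earlier results of these data known. Lists were matched by words in product names, and metacaspase and calcyclin-binding genes caught by such words were dropped afterwards. AP2-like genes below an adjusted p of 0.05 are given pool by pool, and up to 4 called genes of smallest p per list are named. No sequences were used here. Figures were drawn with matplotlib 3.10.9.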

Additional observations from a re-analysis of the deposited data

How the results depend on the processing

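The AP2-like genes counted 9 higher and 1 lower in 12 of 13 alternative fits, and 10 and 1 with library size alone. All 10 called genes stayed called in the 13 fits, including limma-voom, DESeq2's test and the pool number as a replicate block. At a limit of 2-fold, 3 were higher and 0 lower. Of 337 single-gene values, 333 kept direction and side of the threshold, 1 gained a call (LOC105175841, given above) and 3 changed sign, none of them called: LOC105170345 ran from -0.03 (without SiCD_A replicate 2) to 0.13, and LOC105177217 from -0.12 (without SiCD_B replicate 3; -0.05 without SiCD_A replicate 1) to 0.25. Over all genes, leaving out a pool gave 2132 to 3118 higher and 1787 to 2895 lower. Lower organ growth genes numbered 1 with a CPM of at least 1, and 2 to 3 without a pool. Lower miR172 and phase genes numbered 0 with library size alone, 3 with DESeq2's test, 2 with limma-voom, 4 with the replicate block and 0 to 2 without a pool. Fatty acid genes were 12 higher and 1 lower with library size alone, and 3 to 7 higher and 1 to 2 lower without a pool. The cause of these shifts was not tested. Deviations of same-numbered pools correlated at 0.0701, 0.00909 and 0.0565, and those of unlike-numbered pools at -0.0784 to 0.00446. Whether the numbers pair the pools cannot be told from such small values. With the block, 3784 genes were higher and 3397 lower. Depth limits the WRINKLED-type genes near 0.1 CPM.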
